A study of Mus musculus with 14 samples.

Results

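Interferon-stimulated genes are the genes that cells switch on when interferons bind their surface receptors. A set of 37 of them, chosen by name, was followed in RNA from mouse skin, and all 37 were found among the 56953 genes of the deposited count table. Of these, 35 had enough reads to be tested, and Mx1 and Cxcl11 did not. The 14 libraries are QuantSeq forward libraries, in which each read comes from the end of a transcript next to its poly(A) tail. They fall into 6 groups. NEDD8fl/fl mice that carried K14-CreERT, called Cre-positive here, gave 2 libraries with imiquimod and 3 with DMSO. NEDD8fl/fl mice without the recombinase, called Cre-negative, gave 2 with imiquimod and 3 with DMSO. Wild-type C57BL/6J mice gave 2 with imiquimod and 2 with DMSO.

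Both NEDD8fl/fl groups carry the floxed alleles of Nedd8, which encodes the ubiquitin-like modifier of cullin proteins and other targets. K14-CreERT is a recombinase made under the keratin 14 promoter and is active in basal keratinocytes after induction, whereas whole skin was measured. Per the labels, the knockout mice were induced on 5 consecutive days, and no induction is given for the other mice, so any comparison of Cre-positive with other skin may include the inducing agent. Imiquimod, which activates Toll-like receptor 7, was applied as a cream with 5% of the drug from day 0 to day 7 on the shaved back or the right ear. The labels do not say which site a library came from, and the series' design text describes another treatment of dorsal skin, so the site and the length of the DMSO treatment are uncertain. Nothing ties libraries to animals, so the p-values measure the spread between samples, which may be technical.

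Type I interferons signal through IFNAR1 and IFNAR2, and the kinases JAK1 and TYK2 then activate the complex ISGF3, which holds STAT2 and IRF9. ISGF3 binds the interferon-stimulated response element (ISRE) in the promoters of antiviral genes. Interferon gamma signals through IFNGR1 and IFNGR2 with JAK1 and JAK2, and many of its target genes carry the gamma-activated sequence (GAS). In skin these genes are known for their activity in viral infection, lupus and psoriasis, and imiquimod is known to elicit interferon from plasmacytoid dendritic cells.

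Promoter windows of 250 bases before to 50 bases after the annotated start, from RefSeq on GRCm38.p6, were at hand for 28 of the 37 genes. An ISRE core, GAAANNGAAA read on either strand (so also TTTCNNTTTC), stood in the windows of 15 of the 28. Counted by window, 48.5% of 33 windows of the set held it, against 3.44% of all 32851 windows. A GAS core, TTCNNNGAA, which reads the same on both strands, stood in 4 of the 28 genes, and in 12.1% of their windows against 8.30% of all windows. The stretches printed here are those of Isg15, which holds overlapping cores, and of the 8 genes with a core whose imiquimod response differed between Cre-positive and Cre-negative skin. They lie at chr4:156200845-156200926 (minus strand) for Isg15, chr19:34583343-34583446 (plus strand) for Ifit3, chr19:34607739-34607842 (plus strand) for Ifit3b, chr5:120777695-120777764 (minus strand) for Oas3, chr7:104465190-104465259 (minus strand) for Trim30a, chr5:92349063-92349132 (minus strand) for Cxcl10, chr3:142620574-142620643 (plus strand) for Gbp2, chr3:142559969-142560044 (plus strand) for Gbp3 and chr11:48871405-48871480 (minus strand) for Irgm1. Each is written 5′ to 3′ on the strand of the gene, and capitals mark the ISRE cores.
Isg15: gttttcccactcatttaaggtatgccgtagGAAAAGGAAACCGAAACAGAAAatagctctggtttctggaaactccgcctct
Ifit3: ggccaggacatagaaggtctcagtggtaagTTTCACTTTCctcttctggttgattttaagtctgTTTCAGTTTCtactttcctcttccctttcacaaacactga
Ifit3b: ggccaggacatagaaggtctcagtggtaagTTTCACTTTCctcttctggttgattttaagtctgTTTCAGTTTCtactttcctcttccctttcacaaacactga
Oas3: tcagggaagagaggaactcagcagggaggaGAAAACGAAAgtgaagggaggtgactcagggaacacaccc
Trim30a: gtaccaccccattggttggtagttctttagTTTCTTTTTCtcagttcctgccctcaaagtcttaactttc
Cxcl10: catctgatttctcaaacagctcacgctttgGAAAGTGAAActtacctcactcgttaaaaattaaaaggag
Gbp2: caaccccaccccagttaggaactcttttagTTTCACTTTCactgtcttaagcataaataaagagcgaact
Gbp3: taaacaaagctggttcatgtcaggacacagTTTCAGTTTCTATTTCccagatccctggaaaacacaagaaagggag
Irgm1: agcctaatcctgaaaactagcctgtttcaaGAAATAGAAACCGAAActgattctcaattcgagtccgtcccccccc

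The stretches of the neighbouring genes Ifit3 and Ifit3b were identical in 104 of 104 bases. In Isg15 the capitals cover 3 overlapping cores, and in Gbp3 and Irgm1 they cover 2 overlapping cores each. A match to these letters is a description of the window and not a measured binding site.

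The libraries held 5552954 to 34362477 counted reads, of which 618 to 5833 fell on the 37 genes. A gene of the set had between 13 and 5109 reads over all libraries, with a median of 399, and 26 genes had fewer than 10 reads in at least 1 library. Levels are given as counts per 1000000 reads (CPM) with the scaling factors of edgeR, one value per library in the order of the replicate numbers. The 18S ribosomal RNA row took 3.84% to 19.1% of the reads and was high in Cre-negative imiquimod library 2 and Cre-positive DMSO library 1. Nedd8 itself was at 308 and 150.3 CPM in Cre-positive imiquimod skin, 374, 157 and 147 in Cre-positive DMSO, 314 and 461 in Cre-negative imiquimod and 359, 289 and 290.5 in Cre-negative DMSO skin. Its difference between Cre-positive and Cre-negative skin was -0.76 ± 0.50 with imiquimod (log2, adjusted p = 0.326) and -0.47 ± 0.40 with DMSO (adjusted p = 0.403). A loss was therefore not seen in these 3′ tags, but the deleted part of the gene is not given, so the tags may not report on it.

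Transcripts of Xist and of Y-linked genes split the libraries by sex. Both NEDD8fl/fl imiquimod groups were male and the Cre-positive DMSO and wild-type libraries female, while Cre-negative DMSO skin gave 2 male libraries and 1 female library, replicate 3. Sex and treatment therefore cannot be told apart within Cre-positive skin, and a term for sex in the model takes its value from the mixed Cre-negative DMSO group. The comparisons of Cre-positive with Cre-negative imiquimod skin, of Cre-positive with wild-type DMSO skin and of the treatments within wild-type skin were between libraries of 1 sex.

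Summed over the 37 genes, the level was 225 to 343 CPM in Cre-positive imiquimod skin, which held the highest library, against 99.2 to 188 in Cre-positive DMSO skin. Cre-negative skin held 88.6 to 138 CPM with imiquimod and 144 to 233 with DMSO. Wild-type skin held 134 to 149.8 CPM with imiquimod and 232 to 288 with DMSO. The lower Cre-positive imiquimod library was thus below both wild-type DMSO libraries. Without the scaling factors the set took 0.0343% and 0.0252% of the reads in the Cre-positive imiquimod libraries. In the wild-type DMSO libraries it took 0.0279% and 0.0396%, so which library was highest depended on the scaling. The ranges of imiquimod and DMSO skin did not overlap in any of the 3 genotypes, and the imiquimod libraries were the higher ones in Cre-positive skin and the lower ones in Cre-negative and wild-type skin. By group means, 21 of the 37 genes were highest in Cre-positive imiquimod skin, 12 in wild-type DMSO skin, 3 in Cre-negative DMSO skin and 1 in wild-type imiquimod skin. The lowest mean was in Cre-negative imiquimod skin for 15 genes, in wild-type imiquimod skin for 11 and in Cre-positive DMSO skin for 9. In 9 genes (Oas2, Oas3, Oasl1, Oasl2, Dhx58, Trim30a, Cxcl11, Sp100 and Ifi47) both Cre-positive imiquimod libraries lay above all 12 other libraries. For Cxcl11 this rests on 4 and 3 reads. The shares of all genes with these orders of groups and libraries were not counted, so no excess in the set is read from them.

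**Figure D1:**
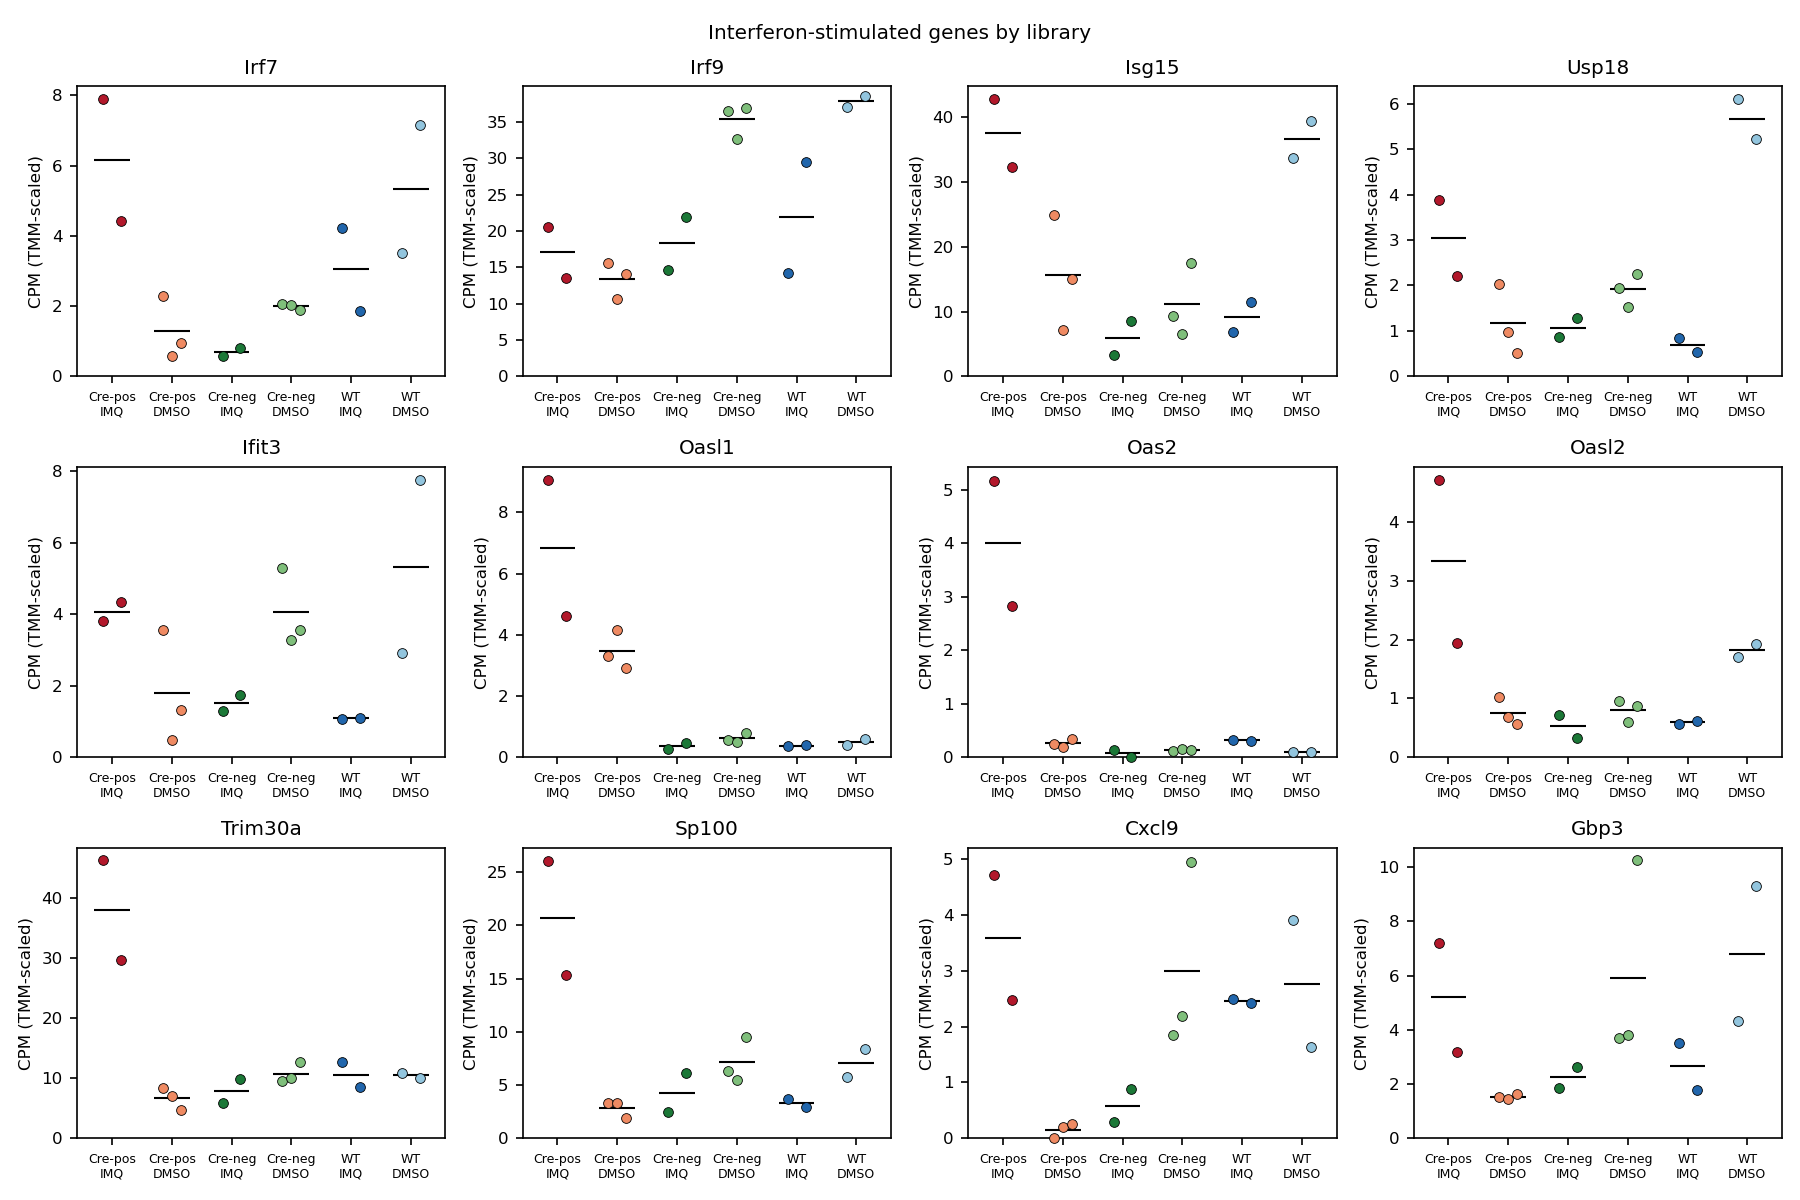
Level of 12 interferon-stimulated genes in each library, in CPM, with 1 panel per gene, the 6 groups along the x axis, 1 point per library and a line at the group mean. For Oas2, Oasl1, Oasl2, Trim30a and Sp100 both Cre-positive imiquimod libraries sit above the 12 other libraries.

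Cre-positive and Cre-negative skin were compared under imiquimod with edgeR's quasi-likelihood test, adjusted by Benjamini-Hochberg over 16027 genes at a threshold of 0.05. In Cre-positive skin 13 of the 35 genes rose and 0 fell, where 11.6% of all genes tested rose and 6.33% fell. At an unadjusted p under 0.05, 20 were higher and 0 lower, and DESeq2 (16 higher) and limma's voom (9 higher) also called 0 lower. Shares of all genes at that p and with those tools are not set beside these counts, so no excess is read from them. The median of the 35 log2 differences was 1.54, against 0.02 over all genes, and 31 of them were positive. In 27 genes both Cre-positive libraries lay above both Cre-negative ones, a pattern that 30.7% of all genes showed, and in 1 gene, Ifi35, both lay below. Trim30a and Oasl1 held their calls with each library left out and under every other alternative run, and Oas2 held in all but the stricter filter on low counts, where it was not tested. Oas2 and Oas3 passed the main read filter only through the Cre-positive imiquimod libraries. Their calls as higher there are therefore not independent of that filter. Without Cre-positive imiquimod library 1, 9 calls ended (Isg15, Irf7, Rsad2, Oas3, Oasl2, Parp14, Cxcl9, Sp100 and Gbp2), with adjusted p from 0.0629 to 0.367. Without Cre-negative imiquimod library 1, 6 ended (adjusted p 0.05696 to 0.212), without its library 2, 7 ended (0.0503 to 0.168), and without Cre-positive library 2 the call of Rsad2 ended (0.138).

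Within Cre-positive skin, 10 of the 35 genes rose with imiquimod and 0 fell, where 8.56% of all genes rose and 2.52% fell. The 10 were Irf7, Oas2, Oas3, Oasl2, Dhx58, Trim30a, Parp14, Cxcl9, Sp100 and Ifi47. At an unadjusted p under 0.05, 21 were higher and 0 lower, and DESeq2 and limma's voom each called 13 higher and 0 lower. These counts, too, lack the shares of all genes at the same settings, and no excess is read from them. The median was 1.28, against -0.04 over all genes, and 33 of the 35 values were positive. Both imiquimod libraries lay above all 3 DMSO libraries in 21 genes, where 22.5% of all genes did so. Oas2, Trim30a, Cxcl9 and Sp100 held with each library left out. Here too Oas2 and Oas3 entered the test only through the imiquimod libraries in which they were high. The calls of Irf7, Oas3, Oasl2, Dhx58, Parp14 and Ifi47 ended without imiquimod library 1 (adjusted p 0.196 to 0.529) and without DMSO library 3 (0.06596 to 0.194), and Dhx58 with Parp14 or Ifi47 ended without each of the others (0.0558 to 0.107). With a term for sex in the model, Trim30a, Cxcl9 and Sp100 remained called and the other 7 were not (adjusted p 0.0663 to 0.506).

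Imiquimod did not raise any of the 35 genes past the threshold in the other 2 genotypes, and at an unadjusted p under 0.05 edgeR gave 0 higher genes in both, with 13 lower in Cre-negative and 14 lower in wild-type skin. DESeq2 and limma's voom also gave 0 higher genes in both. The unadjusted counts lack the shares of all genes at the same p, and no excess is read from them. In Cre-negative skin 0 rose and 5 fell (Stat2, Ifit3b, Mx2, Parp14 and Cxcl9), where 8.15% of all genes rose and 10.1% fell, and the median was -0.95 against -0.06 over all genes. All 5 calls ended without imiquimod library 2 (adjusted p 0.0771 to 0.160), 3 without imiquimod library 1 (0.105 to 0.196), 3 without DMSO library 1 (0.0509 to 0.0763), 4 without DMSO library 2 (0.0506 to 0.0722) and 2 without DMSO library 3 (0.0844 to 0.122). In wild-type skin 0 rose and 5 fell (Isg15, Ifit1, Ifit3, Ifit3b and Usp18), where 9.59% of all genes rose and 11.8% fell, and the median was -1.09 against -0.09. Usp18 held with each library left out. Isg15, Ifit1 and Ifit3b lost their calls without any 1 of the 4 libraries and Ifit3 without 3 of them, all but DMSO library 1, with adjusted p from 0.0592 to 0.289. The imiquimod libraries lay below the DMSO libraries in 17 genes in Cre-negative skin and in 24 in wild-type skin, where 29.5% and 34.3% of all genes did so.

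**Figure D2:**
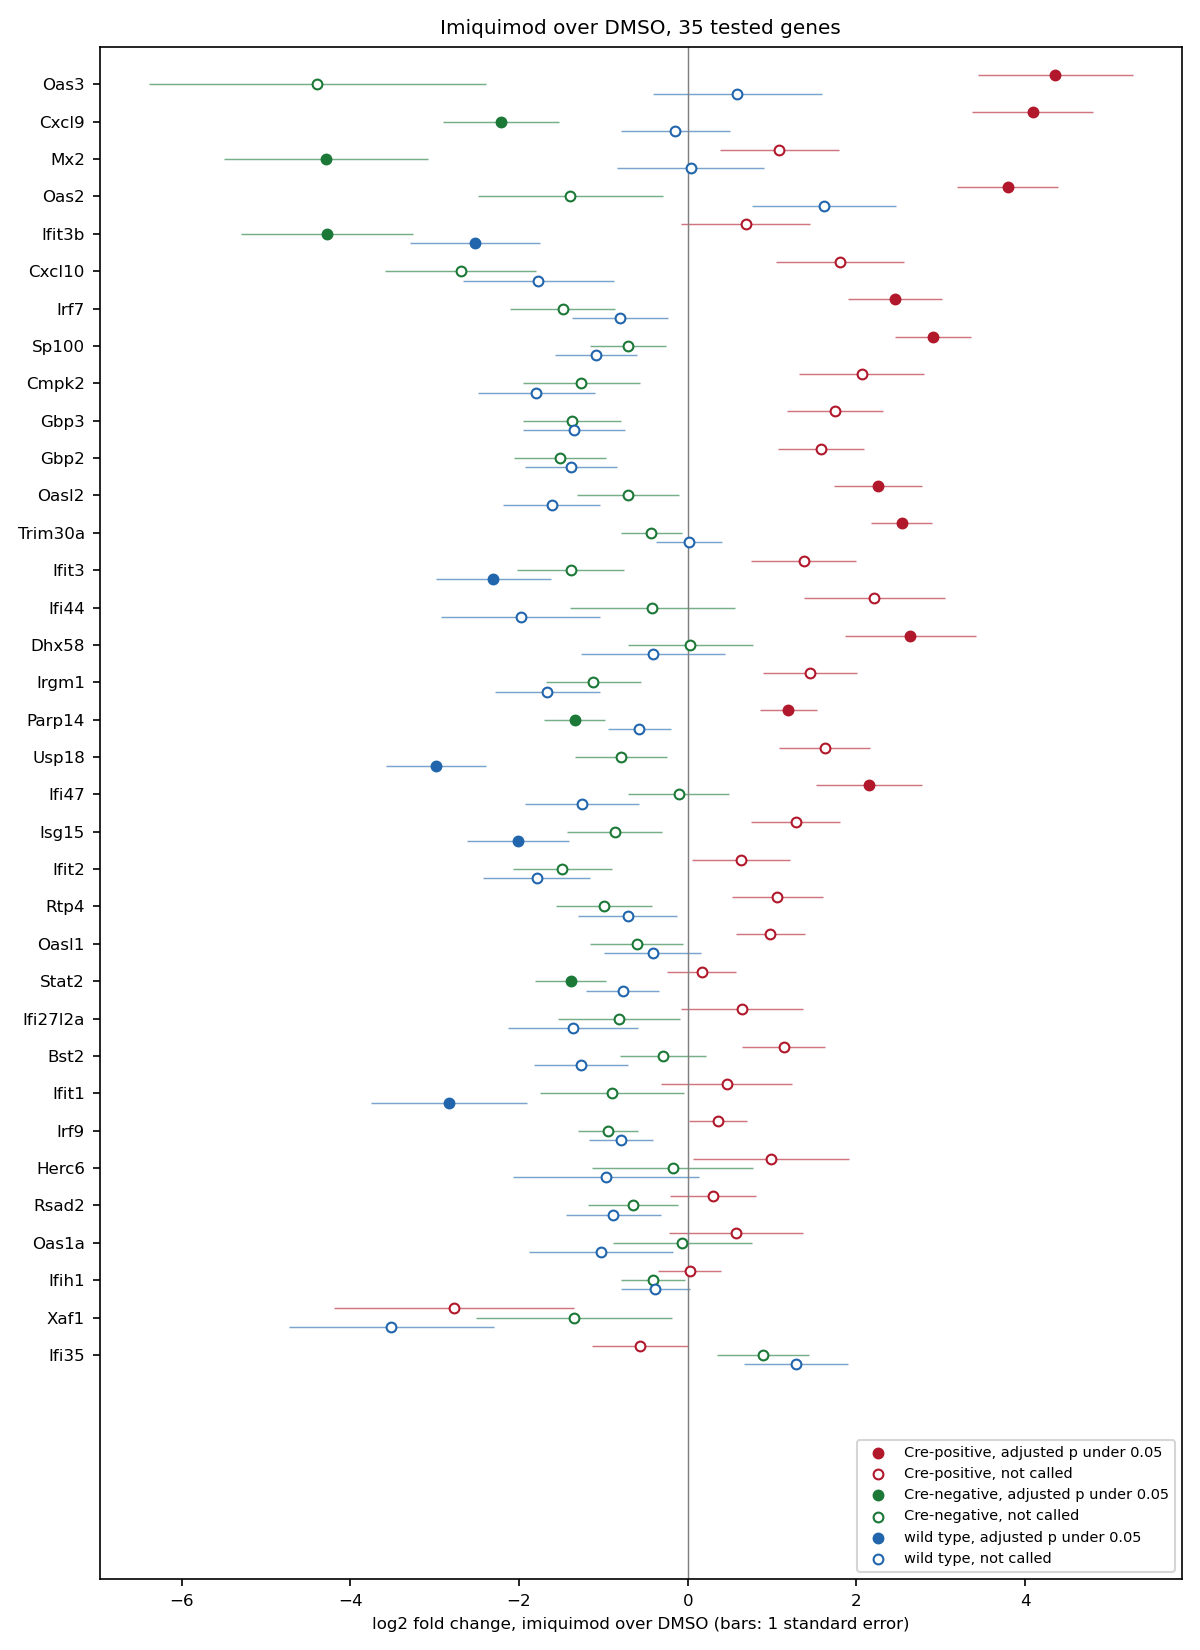
Log2 fold change with imiquimod over DMSO (x axis) for the 35 tested genes (y axis, sorted by the difference between the Cre-positive and Cre-negative responses), shown for Cre-positive, Cre-negative and wild-type skin. Points are edgeR estimates with bars of 1 standard error, filled where the adjusted p is under 0.05; 33 of the Cre-positive points lie right of 0, and 33 of the Cre-negative and 30 of the wild-type points lie left of it.

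The difference between the imiquimod responses of Cre-positive and Cre-negative skin was tested as an interaction in the same model. It was positive and past the threshold in 17 of the 35 genes and negative in 0, where 14% of all genes had a positive and 9.63% a negative call. At an unadjusted p under 0.05, 25 were positive and 0 negative, and DESeq2 (19 positive) and limma's voom (17 positive) also called 0 negative. Shares of all genes at these settings are not given beside them, so no excess is read from these counts. The median difference was 2.53 on the log2 scale, against 0.11 over all genes. Irf7, Trim30a, Parp14, Cxcl9 and Sp100 held with each library left out and under every other alternative. The remaining 12 calls each depended on at least 1 library: 9 ended without Cre-positive imiquimod library 1 (adjusted p 0.0604 to 0.170), 7 without Cre-negative imiquimod library 1 (0.0565 to 0.113) and 7 without Cre-negative imiquimod library 2 (0.05005 to 0.106). Leaving out Cre-positive imiquimod library 2 or any DMSO library other than Cre-positive library 1 ended 2 to 4 calls each (adjusted p 0.0504 to 0.112). With a term for sex 8 of the 17 calls ended (adjusted p 0.05200 to 0.134). These contrasts share libraries: the Cre-positive imiquimod libraries enter the comparison with Cre-negative skin, the treatment response and the interaction alike. Oas2 and Oas3 passed the read filter only through those libraries.

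With DMSO the order of the genotypes was the other way for most of the set. Against Cre-negative DMSO skin, 1 gene (Oasl1) rose and 9 fell in Cre-positive skin, where 14% of all genes rose and 15.7% fell (29.6% in either direction), with a median of -0.83 against -0.06 over all genes. The genes that fell were Irf9, Stat2, Ifit2, Cmpk2, Parp14, Cxcl9, Sp100, Gbp3 and Irgm1. Against wild-type DMSO skin, 1 gene (Oasl1) rose and 11 fell, where 11.3% rose and 14.4% fell, with a median of -1.13 against -0.06. Here the genes that fell were Irf7, Irf9, Ifit3, Ifit3b, Usp18, Cmpk2, Ifi27l2a, Cxcl9, Sp100, Gbp2 and Gbp3. The Cre-positive libraries lay below all Cre-negative ones in 13 genes and above them in 2, where 26.5% and 21.8% of all genes did so. They lay below both wild-type libraries in 22 genes and above them in 2, where 29.6% and 24.2% of all genes did so. Both comparisons use the same 3 Cre-positive libraries.

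In the comparison with Cre-negative DMSO skin, Cxcl9, Irf9 and Oasl1 held with each library left out, and a term for sex left Cxcl9, Gbp3 and Irgm1 called (adjusted p 0.0518 to 0.315 for the other 7). With the female libraries only, a setting added after seeing the data that leaves 1 Cre-negative library, Cxcl9 and Gbp3 remained called. Leaving out Cre-negative DMSO library 3, the only female library of its group, ended the calls of Stat2, Ifit2, Parp14, Sp100, Gbp3 and Irgm1 (adjusted p 0.0556 to 0.0943), and leaving out Cre-positive library 3 ended 5 (0.0503 to 0.175). Each of the other 4 libraries ended 1 to 3 calls among Ifit2, Parp14 and Cmpk2 (0.0558 to 0.136). Against wild-type skin, Irf9, Oasl1, Usp18 and Cxcl9 held with each library left out, 7 calls ended without wild-type library 2 (adjusted p 0.127 to 0.465), and 1 to 5 ended without each of the others (0.0521 to 0.143). Both sides of that comparison were female.

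**Figure D3:**
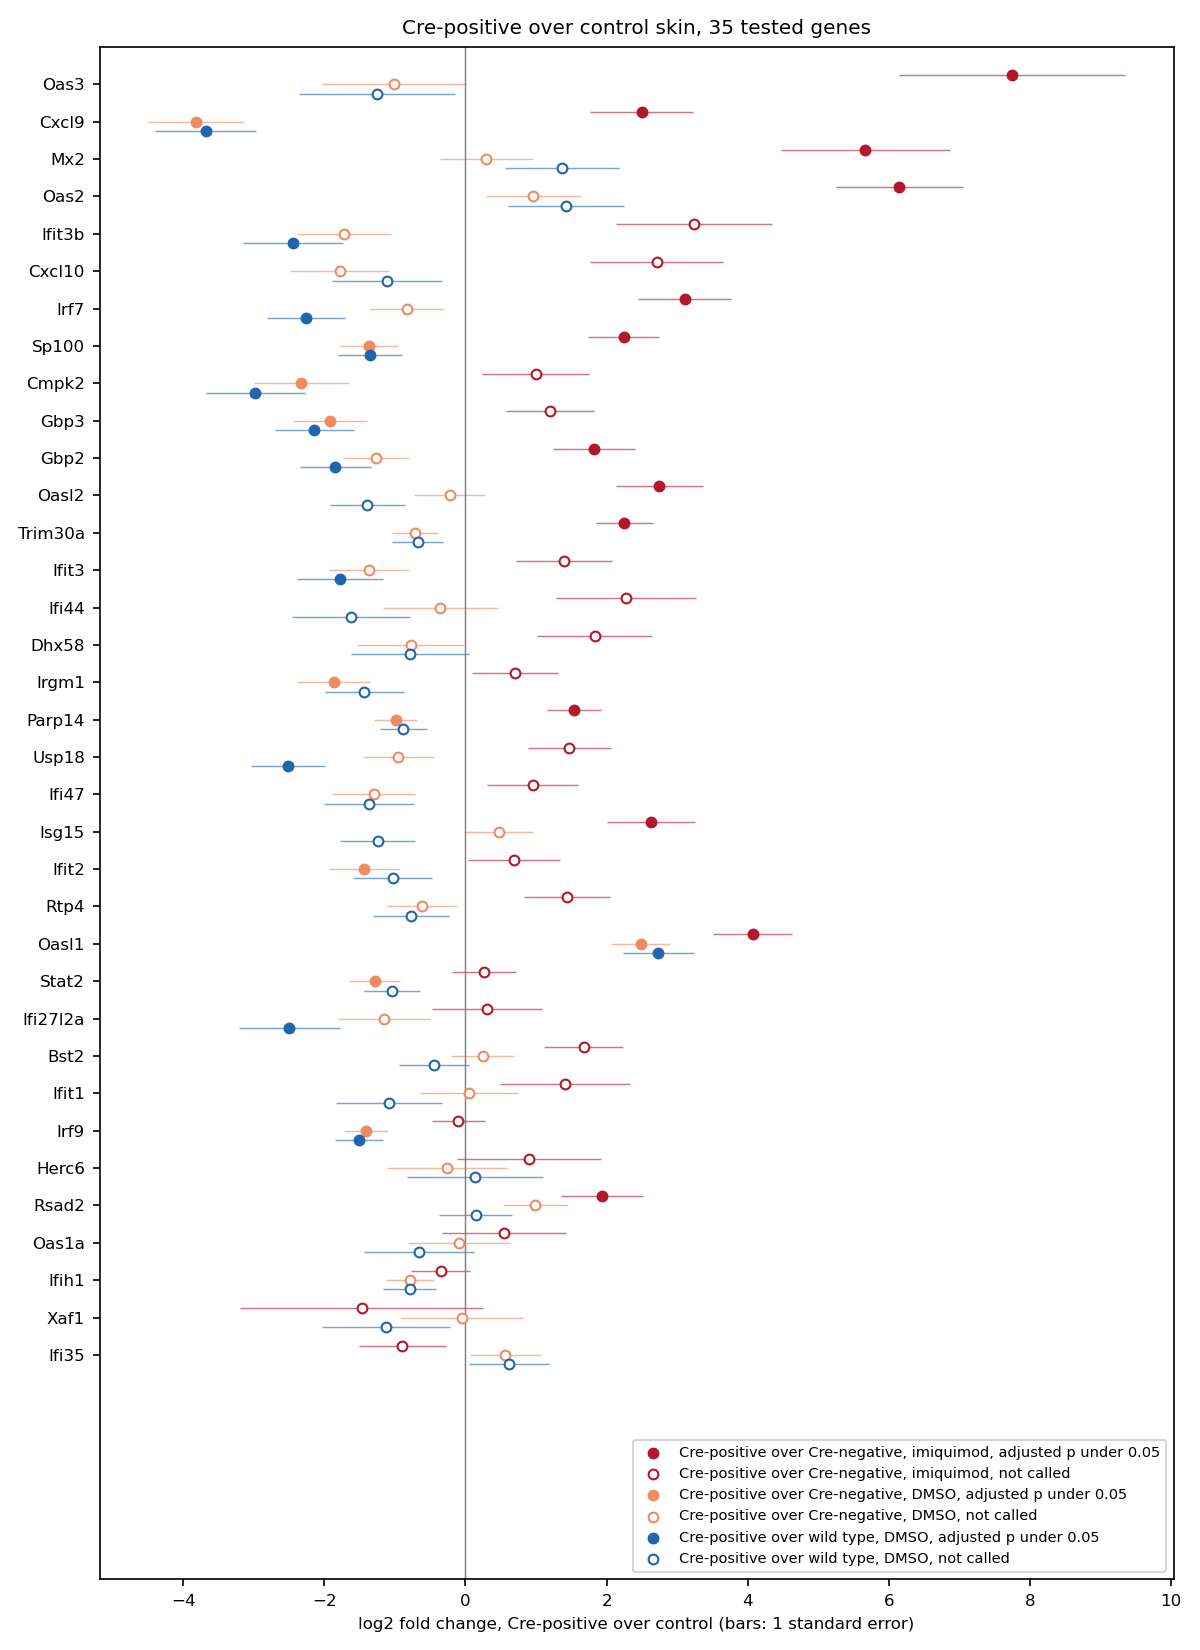
Log2 fold change of Cre-positive skin over Cre-negative skin with imiquimod, over Cre-negative skin with DMSO and over wild-type skin with DMSO (x axis), for the 35 tested genes (y axis). Points are edgeR estimates with bars of 1 standard error, filled where the adjusted p is under 0.05; 31 of the imiquimod points lie right of 0, and 27 and 29 of the DMSO points lie left of it.

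Cre-negative skin was compared with wild-type skin to show how these 2 genotypes differ. With edgeR 0 of the 35 genes and 0% of all genes passed the threshold with DMSO, and the same counts were found with imiquimod. The medians were -0.15 with DMSO and -0.25 with imiquimod. At an unadjusted p under 0.05 there were 4 genes of the set with DMSO and 6 with imiquimod, among 1120 and 2747 of all genes. All of these genes of the set were lower in Cre-negative than in wild-type skin, and 0 were higher. DESeq2 called 0 of the set in both, and limma's voom called 2 with DMSO and 0 with imiquimod. Over all genes DESeq2 called 144 with DMSO and 552 with imiquimod, and voom called 195 and 0. The tools therefore differed on how far these genotypes are apart, and the edgeR counts do not show that they are alike. The Cre-negative DMSO group held 2 male libraries and the Cre-negative imiquimod group was male, while all wild-type libraries were female.

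IRF7 is the transcription factor that amplifies the production of type I interferon. The Cre-positive libraries held 7.901 and 4.42 CPM of Irf7 with imiquimod and 2.29, 0.582 and 0.958 with DMSO. For Irf7 the Cre-negative libraries gave 0.573 and 0.807 CPM with imiquimod and 2.07, 2.02 and 1.89 with DMSO, and the wild-type libraries 4.24 and 1.87 with imiquimod and 3.51 and 7.16 with DMSO. The highest Irf7 level was in Cre-positive imiquimod library 1, although wild-type DMSO library 2 and wild-type imiquimod library 1 reached into the Cre-positive imiquimod range or near it. Irf7 was higher in Cre-positive than in Cre-negative imiquimod skin by 3.11 ± 0.66 (log2, adjusted p = 0.00682), a call that ended without Cre-positive imiquimod library 1 or Cre-negative imiquimod library 1 (adjusted p 0.05696 to 0.0629). With imiquimod it rose by 2.46 ± 0.56 in Cre-positive skin (adjusted p = 0.0127), and the difference from the Cre-negative response was 3.94 ± 0.84 (adjusted p = 0.00641). Against wild-type DMSO skin it fell by 2.26 ± 0.56 in Cre-positive DMSO skin (adjusted p = 0.0105), a call that ended without wild-type DMSO library 2 (adjusted p = 0.127).

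Irf9 measured 20.6 and 13.5 CPM with imiquimod and 15.5, 10.6 and 14.03 with DMSO in Cre-positive skin, and 14.6 and 21.9 with imiquimod and 36.5, 32.6 and 36.9 with DMSO in Cre-negative skin. In wild-type skin Irf9 measured 14.3 and 29.5 CPM with imiquimod and 37.1 and 38.5 with DMSO. IRF9 is the DNA-binding subunit of ISGF3. All 3 Cre-positive DMSO libraries lay below all 5 DMSO libraries of the other genotypes. Irf9 fell by 1.41 ± 0.31 against Cre-negative DMSO skin (adjusted p = 0.00492) and by 1.51 ± 0.34 against wild-type DMSO skin (adjusted p = 0.006300). Both calls held with each library left out, and the Cre-negative one ended with a term for sex. Irf9 shares exon bases with Rnf31 on the same strand, so its count is less certain. Stat2, which supplies the transactivation domain of ISGF3, was at 1.53, 1.84 and 2.06 CPM in Cre-positive DMSO skin, against 4.36, 4.15 and 5.09 in Cre-negative DMSO skin, and fell by 1.29 ± 0.36 (adjusted p = 0.0173), a call that ended without Cre-negative DMSO library 3 (adjusted p = 0.0556). In Cre-negative skin Stat2 also fell with imiquimod, to 1.29 and 2.08 CPM, by 1.39 ± 0.42 (adjusted p = 0.0346), a call that ended with any 1 library left out. Between the genotypes under imiquimod neither Irf9 (-0.10 ± 0.38, adjusted p = 0.889) nor Stat2 (0.27 ± 0.45, adjusted p = 0.731) passed the threshold.

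ISG15 is a ubiquitin-like protein that is attached to other proteins during an interferon response. Per library, Isg15 was at 42.8 and 32.3 CPM in Cre-positive imiquimod, 24.9, 7.08 and 15.01 in Cre-positive DMSO, 3.297 and 8.605 in Cre-negative imiquimod and 9.27, 6.504 and 17.5 in Cre-negative DMSO skin. Wild-type skin gave Isg15 at 6.78 and 11.4 CPM with imiquimod and 33.8 and 39.4 with DMSO. The wild-type DMSO libraries were therefore in the range of the Cre-positive imiquimod libraries, and the Cre-negative imiquimod libraries were among the lowest. Isg15 was higher in Cre-positive than in Cre-negative imiquimod skin by 2.63 ± 0.62 (adjusted p = 0.0118), a call that ended without Cre-positive imiquimod library 1 or Cre-negative imiquimod library 1 (adjusted p 0.0741 to 0.0995). In wild-type skin it fell with imiquimod by 2.01 ± 0.60 (adjusted p = 0.0313), a call that ended without any 1 of wild-type imiquimod libraries 1 and 2 and wild-type DMSO libraries 1 and 2 (adjusted p 0.0592 to 0.214). Its response in Cre-positive skin, 1.28 ± 0.53, did not pass the threshold (adjusted p = 0.138).

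USP18 removes ISG15 from its targets and dampens signalling at IFNAR2. Usp18 stood at 3.87 and 2.21 CPM in Cre-positive imiquimod skin and at 2.04, 0.9697 and 0.507 in Cre-positive DMSO skin. Its levels were 0.8602 and 1.28 CPM in Cre-negative imiquimod and 1.95, 1.53 and 2.26 in Cre-negative DMSO skin, and 0.847 and 0.545 in wild-type imiquimod and 6.11 and 5.24 in wild-type DMSO skin. Wild-type DMSO skin held the most Usp18. There it fell with imiquimod by 2.99 ± 0.59 (adjusted p = 0.00432), and in Cre-positive DMSO skin it was lower than in wild-type DMSO skin by 2.52 ± 0.53 (adjusted p = 0.00416). Both calls held with each library left out. The Cre-positive and Cre-negative responses differed by 2.42 ± 0.77 (adjusted p = 0.0372), a call that ended without any 1 of Cre-positive imiquimod library 1, Cre-negative imiquimod libraries 1 and 2, Cre-negative DMSO libraries 1, 2 and 3 and Cre-positive DMSO libraries 2 and 3 (adjusted p 0.0538 to 0.1704). Herc6, the mouse ISG15 ligase, had 0 to 28 reads per library and passed no test.

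Ifih1 and Dhx58 encode cytoplasmic RNA sensors. Ifih1, which encodes MDA5, ranged only from 5.57 to 16.6 CPM over the 14 libraries and passed no test. Dhx58, which encodes LGP2, was at 2.36 and 2.12 CPM in Cre-positive imiquimod skin and 0.509, 0.485 and 0.225 in Cre-positive DMSO skin, against 0 and 1.08 in Cre-negative imiquimod skin. It rose with imiquimod in Cre-positive skin by 2.64 ± 0.78 (adjusted p = 0.0433), a call that ended with any 1 library left out. Its reads, 31 and 24 against 2, 5 and 8, were few.

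IFIT proteins bind viral RNA and block its translation. The Cre-positive libraries held 3.798 and 4.33 CPM of Ifit3 with imiquimod and 3.56, 0.485 and 1.32 with DMSO. For Ifit3 the Cre-negative libraries gave 1.29 and 1.75 CPM with imiquimod and 5.31, 3.28 and 3.57 with DMSO, and the wild-type libraries 1.08 and 1.09 with imiquimod and 2.91 and 7.75 with DMSO. The 2 wild-type imiquimod libraries were the lowest of the imiquimod libraries, and the Cre-positive imiquimod libraries lay within the range of the Cre-negative and wild-type DMSO libraries. Ifit3 fell with imiquimod in wild-type skin by 2.31 ± 0.68 (adjusted p = 0.0296), a call that ended without any 1 of wild-type imiquimod libraries 1 and 2 and wild-type DMSO library 2 (adjusted p 0.0963 to 0.264). The Cre-positive and Cre-negative responses differed by 2.76 ± 0.89 (adjusted p = 0.0393), a call that ended without any 1 of Cre-positive imiquimod libraries 1 and 2, Cre-negative imiquimod libraries 1 and 2, Cre-negative DMSO libraries 1, 2 and 3 and Cre-positive DMSO libraries 2 and 3 (adjusted p 0.0566 to 0.113).

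Ifit3b, its neighbour with the identical promoter stretch, was at 0.684 and 1.24 CPM in Cre-positive and 0.143 and 0.0672 in Cre-negative imiquimod skin, against 3.13, 1.37 and 1.38 in Cre-negative DMSO skin. In reads these are 9 and 14, 1 and 1, and 56, 25 and 19. The Cre-positive to Cre-negative ratio under imiquimod was 10.3, with a 95% exact interval from 2.54 to 89.9 that covers counting error only, and the test missed the threshold (adjusted p = 0.0586). In Cre-negative skin Ifit3b fell with imiquimod to 0.0457 of its DMSO level (interval 0.00546 to 0.169, adjusted p = 0.0115), a call that ended without Cre-negative imiquimod library 2 (adjusted p = 0.1404). In wild-type skin it fell with imiquimod by 2.53 ± 0.77 (adjusted p = 0.0333), a call that ended without any 1 of wild-type imiquimod libraries 1 and 2 and wild-type DMSO libraries 1 and 2 (adjusted p 0.0622 to 0.188). Of 50-base windows at the 3′ end of Ifit3, 14.9% also occur in Ifit3b, so reads could be split between them.

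Ifit1 was at 0.141 and 0.467 CPM in wild-type imiquimod skin, against 2.104 and 2.03 in wild-type DMSO skin, and fell by 2.83 ± 0.93 (adjusted p = 0.0441). This rests on 3 and 6 reads against 21 and 41, and the call ended without any 1 of wild-type imiquimod libraries 1 and 2 and wild-type DMSO libraries 1 and 2 (adjusted p 0.0607 to 0.289). Ifit2, which binds AU-rich RNA, was at 0.764, 0.388 and 0.422 CPM in Cre-positive DMSO skin, against 1.51, 1.26 and 1.09 in Cre-negative DMSO skin. It fell by 1.43 ± 0.51 (adjusted p = 0.04803), a call that ended without any 1 of Cre-negative DMSO libraries 1, 2 and 3 and Cre-positive DMSO libraries 2 and 3 (adjusted p 0.0715 to 0.175) and was also lost with DESeq2, with a term for sex and with a replicate block (adjusted p = 0.0750). Neither Ifit1 (1.41 ± 0.92, adjusted p = 0.322) nor Ifit2 (0.68 ± 0.65, adjusted p = 0.514) passed the threshold between Cre-positive and Cre-negative imiquimod skin.

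Oligoadenylate synthetases make the second messenger that activates RNase L. Oas2 measured 5.17 and 2.83 CPM with imiquimod and 0.255, 0.194 and 0.338 with DMSO in Cre-positive skin, and 0.143 and 0 with imiquimod and 0.112, 0.164 and 0.146 with DMSO in Cre-negative skin. In wild-type skin Oas2 measured 0.329 and 0.311 CPM with imiquimod and 0.1002 and 0.0988 with DMSO. Reads were 68 and 32 in the Cre-positive imiquimod libraries and 0 to 12 in each of the others. Oas2 was therefore tested only because of the group in which it was high. Between the genotypes under imiquimod, 100 reads stood against 1, a ratio of 89.3 with an exact interval from 15.7 to 3561, and the test gave an adjusted p of 0.000812. Oas2 rose with imiquimod in Cre-positive skin by 3.79 ± 0.60 (adjusted p = 0.00133), and both calls held with each library left out. The response differed from the Cre-negative one by 5.18 ± 1.22 (adjusted p = 0.01001), a call that ended without Cre-positive imiquimod library 1 or Cre-negative imiquimod library 2 (adjusted p 0.05005 to 0.0622).

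Per library, Oas3 was at 2.81 and 0.707 CPM in Cre-positive imiquimod, 0, 0.09697 and 0.0845 in Cre-positive DMSO, 0 and 0 in Cre-negative imiquimod and 0.112, 0.0547 and 0.364 in Cre-negative DMSO skin. Wild-type skin gave Oas3 at 0.235 and 0.389 CPM with imiquimod and 0.2004 and 0.198 with DMSO. Oas3 had 45 reads in the Cre-positive imiquimod libraries and 0 in the Cre-negative imiquimod libraries, so it was at least 13.4-fold higher, against a floor of 3 reads over the group. That call (adjusted p = 0.00658) ended without Cre-positive imiquimod library 1 or Cre-negative imiquimod library 2 (adjusted p 0.0658 to 0.0733). Its Cre-positive response was 4.36 ± 0.92 (adjusted p = 0.009000), a call that ended without Cre-positive imiquimod library 1 or Cre-positive DMSO library 3 (adjusted p 0.06596 to 0.266). Library 1 held 37 of those 45 reads, and Oas3 passed the read filter only through this group. The response differed from the Cre-negative one by a fitted 8.75 ± 2.03 (adjusted p = 0.0103), a value that depends on the prior count because of the group at 0, and the call ended without Cre-positive imiquimod library 1 (adjusted p = 0.0604).

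Oasl1, an OAS-like protein without synthetase activity that is known in mice to restrain translation of Irf7, was the 1 gene of the set past the threshold as higher in Cre-positive skin under both treatments. Oasl1 stood at 9.04 and 4.598 CPM in Cre-positive imiquimod skin and at 3.31, 4.17 and 2.93 in Cre-positive DMSO skin. Its levels were 0.287 and 0.471 CPM in Cre-negative imiquimod and 0.558, 0.492 and 0.801 in Cre-negative DMSO skin, and 0.377 and 0.389 in wild-type imiquimod and 0.401 and 0.593 in wild-type DMSO skin. All 5 Cre-positive libraries lay above all 9 others. It rose by 4.07 ± 0.56 against Cre-negative imiquimod skin (adjusted p = 0.000581), by 2.49 ± 0.42 against Cre-negative DMSO skin (adjusted p = 0.000825) and by 2.74 ± 0.50 against wild-type DMSO skin (adjusted p = 0.00184). The 3 calls held with each library left out, and the one against Cre-negative DMSO skin ended with a term for sex and with female libraries only. Within a genotype imiquimod did not move Oasl1 past the threshold, with 0.98 ± 0.41, adjusted p = 0.145 in Cre-positive skin and -0.61 ± 0.55, adjusted p = 0.489 in Cre-negative skin.

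The Cre-positive libraries held 4.71 and 1.95 CPM of Oasl2 with imiquimod and 1.02, 0.679 and 0.563 with DMSO. For Oasl2 the Cre-negative libraries gave 0.717 and 0.336 CPM with imiquimod and 0.949, 0.601 and 0.873 with DMSO, and the wild-type libraries 0.565 and 0.623 with imiquimod and 1.704 and 1.93 with DMSO. OASL2 is a ubiquitin-like-domain member of the same family. It rose by 2.75 ± 0.62 between the genotypes under imiquimod (adjusted p = 0.00908), a call that ended without Cre-positive imiquimod library 1 or Cre-negative imiquimod library 2 (adjusted p 0.0941 to 0.128), and by 2.26 ± 0.52 with imiquimod in Cre-positive skin (adjusted p = 0.0135), a call that ended without Cre-positive imiquimod library 1 or Cre-positive DMSO library 3 (adjusted p 0.0835 to 0.3297). The 2 responses differed by 2.97 ± 0.80 (adjusted p = 0.0182), a call that ended without Cre-positive imiquimod library 1 or Cre-negative imiquimod library 2 (adjusted p 0.0869 to 0.129). Oas1a, for which 56.1% of the 3′ windows also occur in Oas1g, passed no test, and its count is uncertain.

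Mx2, a gene of the dynamin-like GTPase family, was nearly unread in Cre-negative imiquimod skin. Mx2 measured 1.67 and 3.71 CPM with imiquimod and 1.02, 2.62 and 0.3098 with DMSO in Cre-positive skin, and 0 and 0.0672 with imiquimod and 1.06, 0.929 and 1.09 with DMSO in Cre-negative skin. In wild-type skin Mx2 measured 0.518 and 0.467 CPM with imiquimod and 0.601 and 0.395 with DMSO. The ratio of Cre-positive to Cre-negative imiquimod skin was 57.1 with an exact interval from 9.90 to 2292, from 64 reads against 1 (adjusted p = 0.00647), a call that ended without Cre-negative imiquimod library 2 (adjusted p = 0.0503). In Cre-negative skin Mx2 fell with imiquimod to 0.0448 of its DMSO level (interval 0.00111 to 0.261, adjusted p = 0.0264), a call that ended without any 1 of Cre-negative imiquimod libraries 1 and 2 and Cre-negative DMSO libraries 1 and 2 (adjusted p 0.0506 to 0.134). The responses differed by 5.37 ± 1.41 (adjusted p = 0.0165), a call that ended without either of Cre-negative imiquimod libraries 1 and 2 (adjusted p 0.0565 to 0.05797). Mx1, which was not tested, had 12 reads in Cre-positive and 1 in Cre-negative imiquimod skin, a ratio of 10.7 with an interval from 1.59 to 458.

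Rsad2, which encodes viperin, was read in all 14 libraries. Per library, Rsad2 was at 18.4 and 24.1 CPM in Cre-positive imiquimod, 26.2, 11.3 and 14.96 in Cre-positive DMSO, 3.44 and 7.46 in Cre-negative imiquimod and 8.71, 5.47 and 11.9 in Cre-negative DMSO skin. Wild-type skin gave Rsad2 at 7.86 and 9.11 CPM with imiquimod and 23.8 and 7.61 with DMSO. Cre-positive DMSO library 1 and wild-type DMSO library 1 were as high as the Cre-positive imiquimod libraries. Rsad2 was higher in Cre-positive than in Cre-negative imiquimod skin by 1.93 ± 0.59 (adjusted p = 0.0361), a call that ended without any 1 of Cre-positive imiquimod libraries 1 and 2 and Cre-negative imiquimod libraries 1 and 2 (adjusted p 0.0592 to 0.212). Bst2, the tetherin that holds budding virions at the membrane, reached 51.1 and 21.3 CPM in Cre-positive imiquimod skin, against 8.32 and 14.3 in Cre-negative imiquimod skin, a difference of 1.67 ± 0.56 that missed the threshold (adjusted p = 0.0548). Cmpk2, a mitochondrial nucleotide kinase whose gene neighbours Rsad2, was at 0.255, 0.291 and 0.197 CPM in Cre-positive DMSO skin, against 1.396, 1.04 and 1.16 in Cre-negative and 0.802 and 2.86 in wild-type DMSO skin. It fell by 2.32 ± 0.67 against Cre-negative skin (adjusted p = 0.0197), a call that ended without Cre-negative DMSO library 1 or Cre-positive DMSO library 3 (adjusted p 0.0572 to 0.106), and by 2.98 ± 0.70 against wild-type skin (adjusted p = 0.00804), a call that ended without wild-type DMSO library 2 (adjusted p = 0.217). Its responses differed by 3.32 ± 1.01 (adjusted p = 0.0315), a call that ended without any 1 of Cre-positive imiquimod libraries 1 and 2, Cre-negative imiquimod library 1, Cre-negative DMSO libraries 1 and 2 and Cre-positive DMSO library 3 (adjusted p 0.0504 to 0.112).

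Trim30a, an inhibitor of Toll-like receptor signalling in mice, separated the Cre-positive imiquimod libraries from all others. Trim30a stood at 46.3 and 29.8 CPM in Cre-positive imiquimod skin and at 8.399, 6.98 and 4.73 in Cre-positive DMSO skin. Its levels were 5.88 and 9.95 CPM in Cre-negative imiquimod and 9.61, 10.00 and 12.7 in Cre-negative DMSO skin, and 12.7 and 8.49 in wild-type imiquimod and 10.9 and 10.1 in wild-type DMSO skin. The 12 libraries outside Cre-positive imiquimod skin ranged from 4.73 to 12.7 CPM. Trim30a rose by 2.25 ± 0.40 against Cre-negative imiquimod skin (adjusted p = 0.00274) and by 2.54 ± 0.36 with imiquimod in Cre-positive skin (adjusted p = 0.000638), and the responses differed by 2.97 ± 0.52 (adjusted p = 0.00253). With imiquimod the Cre-negative (-0.43 ± 0.36) and wild-type (0.02 ± 0.39) estimates had adjusted p of 0.431 and 0.984.

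Sp100 is a component of nuclear bodies that restrict viral genomes. The Cre-positive libraries held 26.1 and 15.3 CPM of Sp100 with imiquimod and 3.31, 3.297 and 1.94 with DMSO. For Sp100 the Cre-negative libraries gave 2.44 and 6.12 CPM with imiquimod and 6.37, 5.52 and 9.53 with DMSO, and the wild-type libraries 3.67 and 2.96 with imiquimod and 5.71 and 8.35 with DMSO. Its 2 Cre-positive imiquimod libraries lay above all others, and its 3 Cre-positive DMSO libraries lay below all other DMSO libraries. It rose by 2.24 ± 0.50 against Cre-negative imiquimod skin (adjusted p = 0.00837), a call that ended without Cre-positive imiquimod library 1 or Cre-negative imiquimod library 1 (adjusted p 0.0722 to 0.0868). With imiquimod it rose by 2.90 ± 0.45 in Cre-positive skin (adjusted p = 0.00124), and the responses differed by 3.61 ± 0.65 (adjusted p = 0.00283). Both of these held with each library left out and with a term for sex. Against DMSO skin of the other genotypes it fell by 1.37 ± 0.41 in the Cre-negative comparison (adjusted p = 0.0245), a call that ended without Cre-negative DMSO library 3 or Cre-positive DMSO library 3 (adjusted p 0.0943 to 0.111), and by 1.35 ± 0.45 in the wild-type one (adjusted p = 0.0407), a call that ended with any 1 library left out.

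PARP14 is an ADP-ribosyltransferase induced by interferon. Parp14 measured 16.4 and 8.58 CPM with imiquimod and 5.09, 6.59 and 4.73 with DMSO in Cre-positive skin, and 5.02 and 3.63 with imiquimod and 10.4, 11.6 and 10.6 with DMSO in Cre-negative skin. In wild-type skin Parp14 measured 6.02 and 7.55 CPM with imiquimod and 10.5 and 9.63 with DMSO. Its Cre-negative libraries separated by treatment, the imiquimod ones being lower. Parp14 rose by 1.54 ± 0.38 between the genotypes under imiquimod (adjusted p = 0.0147), a call that ended without Cre-positive imiquimod library 1 or Cre-negative imiquimod library 2 (adjusted p 0.0986 to 0.198), and by 1.19 ± 0.34 in the Cre-positive response (adjusted p = 0.0358), a call that ended without any 1 of Cre-positive imiquimod library 1 and Cre-positive DMSO libraries 1 and 3 (adjusted p 0.0573 to 0.529). In Cre-negative skin it fell with imiquimod by 1.34 ± 0.36 (adjusted p = 0.0206), a call that ended without any 1 of Cre-negative DMSO libraries 1 and 2 and Cre-negative imiquimod library 2 (adjusted p 0.0509 to 0.1605). The difference between the responses, 2.53 ± 0.49 (adjusted p = 0.00408), held with each library left out. Parp14 shares exon bases with another gene on the same strand, so its count is less certain. With DMSO it fell by 0.99 ± 0.31 against Cre-negative skin (adjusted p = 0.0275), a call that ended without any 1 of Cre-negative DMSO libraries 1, 2 and 3 and Cre-positive DMSO libraries 1 and 3 (adjusted p 0.0558 to 0.104).

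The other genes of this class passed few tests. Ifi27l2a, a small mitochondrial protein induced by interferon, was at 14.3, 3.103 and 3.52 CPM in Cre-positive DMSO skin, against 24.3 and 48.9 in wild-type DMSO skin, and fell by 2.50 ± 0.72 (adjusted p = 0.0215), a call that ended without any 1 of Cre-positive DMSO libraries 2 and 3 and wild-type DMSO library 2 (adjusted p 0.0722 to 0.152). Ifi44, Rtp4, Xaf1 and Ifi35 passed no test. Ifi44 was at 1.82 and 1.77 CPM in Cre-positive and 0.717 and 0.134 in Cre-negative imiquimod skin, and Rtp4 was at 7.67 and 5.75 CPM in Cre-positive and 1.43 and 3.36 in Cre-negative imiquimod skin, groups that did not overlap. Ifi35 had a negative difference, at 12.7 and 7.16 CPM in Cre-positive and 15.3 and 21.6 in Cre-negative imiquimod skin (-0.90 ± 0.61, adjusted p = 0.349). Xaf1 had at most 12 reads in any library.

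Cxcl9, Cxcl10 and Cxcl11 encode the ligands of the receptor CXCR3, which draws activated T cells into tissue, and Cxcl9 is chiefly a target of interferon gamma. Per library, Cxcl9 was at 4.71 and 2.48 CPM in Cre-positive imiquimod, 0, 0.194 and 0.253 in Cre-positive DMSO, 0.287 and 0.874 in Cre-negative imiquimod and 1.84, 2.19 and 4.95 in Cre-negative DMSO skin. Wild-type skin gave Cxcl9 at 2.49 and 2.41 CPM with imiquimod and 3.91 and 1.63 with DMSO. Cxcl9 was thus at its lowest in Cre-positive DMSO skin, where 0, 2 and 9 reads were counted. It fell by 3.81 ± 0.68 against Cre-negative DMSO skin (adjusted p = 0.00124) and by 3.68 ± 0.72 against wild-type DMSO skin (adjusted p = 0.00274). With imiquimod it rose by 4.09 ± 0.72 in Cre-positive skin (adjusted p = 0.00266), and the responses differed by 6.31 ± 1.003 (adjusted p = 0.00162). These 4 calls held with each library left out and with a term for sex. Between the genotypes under imiquimod it was higher by 2.50 ± 0.73 (adjusted p = 0.0307), a call that ended without any 1 of Cre-positive imiquimod library 1 and Cre-negative imiquimod libraries 1 and 2 (adjusted p 0.0638 to 0.222), and in Cre-negative skin it fell with imiquimod by 2.22 ± 0.69 (adjusted p = 0.0395), a call that ended without any 1 of Cre-negative imiquimod libraries 1 and 2 and Cre-negative DMSO libraries 2 and 3 (adjusted p 0.0594 to 0.196).

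Cxcl10 stood at 1.67 and 3.98 CPM in Cre-positive imiquimod skin and at 0.255, 0.194 and 1.46 in Cre-positive DMSO skin. Its levels were 0.143 and 0.605 CPM in Cre-negative imiquimod and 1.68, 2.46 and 4.22 in Cre-negative DMSO skin, and 0.471 and 0.545 in wild-type imiquimod and 2.71 and 0.889 in wild-type DMSO skin. The Cre-positive and Cre-negative groups with imiquimod did not overlap, but the difference of 2.71 ± 0.94 missed the threshold (adjusted p = 0.0626). With DMSO the difference of Cre-positive from Cre-negative skin did not pass either (-1.78 ± 0.70, adjusted p = 0.0695), but with a replicate block it did (-2.30, adjusted p = 0.0237). The responses differed by 4.50 ± 1.17 (adjusted p = 0.0161), a call that ended without Cre-negative imiquimod library 1 or Cre-positive imiquimod library 2 (adjusted p 0.0642 to 0.0689). Cxcl11 had 7 reads in Cre-positive and 0 in Cre-negative imiquimod skin, at least 2.08-fold higher against a floor of 3 reads, and 2 in Cre-positive DMSO skin, a ratio of 7.11 with an exact interval from 1.35 to 70.2. Cxcl11 was not tested.

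The guanylate-binding proteins and immunity-related GTPases of the set act on membranes around intracellular pathogens and are strong targets of interferon gamma. The Cre-positive libraries held 5.01 and 2.39 CPM of Gbp2 with imiquimod and 1.02, 1.75 and 0.958 with DMSO. For Gbp2 the Cre-negative libraries gave 1.004 and 1.08 CPM with imiquimod and 2.07, 2.19 and 4.804 with DMSO, and the wild-type libraries 1.98 and 1.402 with imiquimod and 5.21 and 3.75 with DMSO. Gbp3 measured 7.22 and 3.18 CPM with imiquimod and 1.53, 1.45 and 1.63 with DMSO in Cre-positive skin, and 1.86 and 2.62 with imiquimod and 3.69, 3.83 and 10.3 with DMSO in Cre-negative skin. In wild-type skin Gbp3 measured 3.53 and 1.79 CPM with imiquimod and 4.31 and 9.29 with DMSO. For both genes the Cre-positive DMSO libraries were the lowest DMSO libraries. Gbp2 was higher in Cre-positive than in Cre-negative imiquimod skin by 1.82 ± 0.58 (adjusted p = 0.0454), a call that ended without any 1 of Cre-positive imiquimod library 1 and Cre-negative imiquimod libraries 1 and 2 (adjusted p 0.158 to 0.367). Its responses differed by 3.09 ± 0.75 (adjusted p = 0.0115), a call that ended without Cre-positive imiquimod library 1 (adjusted p = 0.0819). Against wild-type DMSO skin Gbp2 fell by 1.84 ± 0.51 (adjusted p = 0.0177), a call that ended without Cre-positive DMSO library 3 or wild-type DMSO library 1 (adjusted p 0.0742 to 0.123). Gbp3 fell by 1.92 ± 0.53 against Cre-negative DMSO skin (adjusted p = 0.0149), a call that ended without Cre-negative DMSO library 3 or Cre-positive DMSO library 3 (adjusted p 0.0503 to 0.0809). Against wild-type DMSO skin Gbp3 fell by 2.14 ± 0.56 (adjusted p = 0.0142), a call that ended without wild-type DMSO library 2 (adjusted p = 0.173). Its responses differed by 3.12 ± 0.82 (adjusted p = 0.0163), a call that ended without Cre-positive imiquimod library 1 or Cre-negative imiquimod library 1 (adjusted p 0.0647 to 0.108).

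Irgm1, a regulator of the other immunity-related GTPases, was at 0.509, 0.9697 and 1.01 CPM in Cre-positive DMSO skin, against 2.46, 3.01 and 4.44 in Cre-negative DMSO skin. It fell by 1.87 ± 0.51 (adjusted p = 0.0151), a call that ended without Cre-negative DMSO library 3 (adjusted p = 0.0574). The responses differed by 2.57 ± 0.80 (adjusted p = 0.0337), a call that ended without any 1 of Cre-positive imiquimod library 1, Cre-negative imiquimod libraries 1 and 2, Cre-negative DMSO libraries 2 and 3 and Cre-positive DMSO library 3 (adjusted p 0.0558 to 0.148). Ifi47 was at 3.95 and 2.56 CPM with imiquimod and 1.53, 0.582 and 0.507 with DMSO in Cre-positive skin, a rise of 2.15 ± 0.63 (adjusted p = 0.0422), a call that ended without any 1 of Cre-positive imiquimod libraries 1 and 2 and Cre-positive DMSO libraries 2 and 3 (adjusted p 0.0604 to 0.348). Ifi47 shares exon bases with other genes on both strands, so its count is uncertain.

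The interferons themselves were hardly read. Of 21 interferon genes in the table, 17 had 0 reads in all 14 libraries, and the rest had 11 reads in total. Ifng had 6 reads, found in both Cre-positive imiquimod libraries, Cre-negative DMSO library 1 and wild-type DMSO library 2. Ifne and Ifnk had 2 reads each and Ifnz 1. None was tested, and at this depth a difference in interferon transcripts was not detectable.

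Of 17 tested genes for interferon receptors and their signalling, 8 rose and 0 fell with imiquimod in Cre-positive skin, where 8.56% of all genes rose, with a median of 1.04. Ifnar2, the signalling chain of the type I receptor, was at 69.5 and 27.8 CPM in Cre-positive imiquimod skin, against 8.65, 8.44 and 6.62 in Cre-positive DMSO skin. Every other library held between 4.33 and 10.8 CPM, so the imiquimod libraries stood apart from all of them. Ifnar2 rose by 2.63 ± 0.38 (adjusted p = 0.000748), a call that held with each library left out and ended with a term for sex. Ifnar1 rose by 1.65 ± 0.39 (adjusted p = 0.0162), a call that ended without Cre-positive imiquimod library 1 or Cre-positive DMSO library 3 (adjusted p 0.0791 to 0.335). The 8 calls became 1 without Cre-positive imiquimod library 1 and 0 with a term for sex.

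Between Cre-positive and Cre-negative imiquimod skin 3 of the 17 rose and 0 fell, where 11.6% of all genes rose, with a median of 0.67, or 1 without Cre-positive imiquimod library 1. Jak2, the kinase of the interferon gamma receptor among others, was at 85.3 and 64.02 CPM in Cre-positive imiquimod skin, against 25.8 and 16.4 in Cre-negative imiquimod skin, and rose by 1.83 ± 0.35 (adjusted p = 0.003700), a call that held with each library left out. Irf1, the first-line factor of the interferon gamma response, was at 116 and 76.7 CPM, against 20.2 and 35.2, and rose by 1.79 ± 0.35 (adjusted p = 0.00465), a call that ended without Cre-positive imiquimod library 1 or Cre-negative imiquimod library 1 (adjusted p 0.0523 to 0.0566). Ifnar2 rose by 2.24 ± 0.43 (adjusted p = 0.00395), a call that ended without Cre-positive imiquimod library 1 (adjusted p = 0.0656). The responses to imiquimod differed in 6 of the 17 genes, or 2 without Cre-positive imiquimod library 1, each with a positive difference, among them Irf1 (2.22 ± 0.45, adjusted p = 0.00509) and Ifngr1 (2.11 ± 0.44, adjusted p = 0.00547), which held with each library left out. Of all genes 14% had a positive and 9.63% a negative difference past the threshold.

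With DMSO 3 signalling genes rose and 5 fell in Cre-positive against Cre-negative skin, or 1 to 3 and 3 to 4 with 1 library left out and 1 and 1 with a term for sex, where 14% of all genes rose and 15.7% fell. Ifngr1, the ligand-binding chain of the interferon gamma receptor, was at 83.5, 75.4 and 68.8 CPM, against 202, 163 and 163, and fell by 1.21 ± 0.28 (adjusted p = 0.00551), a call that held with each library left out. Ifngr2 fell by 1.25 ± 0.31 (adjusted p = 0.00844), a call that held with each library left out. Both ended with a term for sex. The phosphatase gene Ptpn1 rose by 1.31 ± 0.27 (adjusted p = 0.00302), a call that held with each library left out.

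Among 21 tested genes for nucleic acid sensors and their adaptors, 3 rose and 1 fell with imiquimod in Cre-positive skin, or 1 and 0 without imiquimod library 1, where 8.56% of all genes rose and 2.52% fell. Tlr7, the receptor that imiquimod activates, was at 6.91 and 4.24 CPM with imiquimod and 0.764, 0.679 and 0.507 with DMSO. It rose by 3.18 ± 0.51 (adjusted p = 0.00142), a call that held with each library left out and ended with a term for sex. Tlr7 was at 1.15 and 2.89 CPM with imiquimod and 3.18, 1.804 and 2.18 with DMSO in Cre-negative skin, and the responses differed by 3.37 ± 0.70 (adjusted p = 0.00566), a call that held with each library left out. In wild-type skin Tlr7 was at 0.377 and 0.234 CPM with imiquimod and 0.701 and 0.741 with DMSO. With DMSO the Cre-positive libraries were thus near the wild-type ones, and the Cre-negative libraries were above both. Between the genotypes under imiquimod, Rigi, an RNA sensor, rose by 1.75 ± 0.44 (adjusted p = 0.0163), a call that ended without Cre-positive imiquimod library 1 or Cre-negative imiquimod library 2 (adjusted p 0.109 to 0.171). Cgas, a DNA sensor, fell by 1.17 ± 0.32 (adjusted p = 0.0244), a call that ended without any 1 of Cre-positive imiquimod libraries 1 and 2 and Cre-negative imiquimod library 1 (adjusted p 0.0971 to 0.105).

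A further list of 65 interferon-induced genes outside the set had 58 tested. With imiquimod 20 rose and 0 fell in Cre-positive skin (median 1.29), and 17 rose and 0 fell against Cre-negative imiquimod skin (median 0.92), where 8.56% and 11.6% of all genes rose. With 1 library left out the first count ran from 8 to 22 and the second from 5 to 16, both lowest without Cre-positive imiquimod library 1, and with a term for sex they were 6 and 16. With imiquimod 8 rose and 5 fell in Cre-negative skin (2 to 7 and 1 to 2 with 1 library left out, the fewest rising without imiquimod library 2), and 7 rose and 6 fell in wild-type skin (4 to 8 and 0 to 2, the fewest without imiquimod library 1). Of all genes 8.15% rose and 10.1% fell in Cre-negative skin, and 9.59% rose and 11.8% fell in wild-type skin. Sp140, a relative of Sp100, rose by 4.64 ± 0.50 in Cre-positive skin (adjusted p = 0.000124) and by 3.39 ± 0.53 against Cre-negative imiquimod skin (adjusted p = 0.00121), and both calls held with each library left out. Ifitm1, which blocks viral entry, rose by 4.84 ± 0.51 against Cre-negative imiquimod skin (adjusted p = 0.000165) and by 5.10 ± 0.46 against Cre-negative DMSO skin (adjusted p = 8.60e-06), and both calls held with each library left out. With DMSO 7 of the 58 rose and 14 fell against Cre-negative skin, or 6 to 7 and 9 to 13 with 1 library left out, the fewest falling without Cre-negative library 2, and 3 and 6 with a term for sex. Of all genes 14% rose and 15.7% fell in that comparison.

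Of 18 tested targets of interferon gamma outside the set, 9 rose and 0 fell with imiquimod in Cre-positive skin (median 1.74), a count that ran from 2 to 7 with 1 library left out and was 1 with a term for sex. Against Cre-negative imiquimod skin 5 rose and 0 fell (median 1.04), or 2 to 4 with 1 library left out. Both counts were lowest without Cre-positive imiquimod library 1, and 8.56% and 11.6% of all genes rose in these comparisons. Nos2, the inducible nitric oxide synthase, was at 69.3 and 34.3 CPM in Cre-positive imiquimod skin and 0, 0.582 and 0.0282 in Cre-positive DMSO skin. With 1300 reads against 0 in Cre-negative imiquimod skin it was at least 387-fold higher (adjusted p = 0.000466), a call that held with each library left out. Cd274, which encodes PD-L1, rose with imiquimod by 3.32 ± 0.40 in Cre-positive skin (adjusted p = 0.0002298), by 1.24 ± 0.39 in Cre-negative skin (adjusted p = 0.0403) and by 2.20 ± 0.44 in wild-type skin (adjusted p = 0.00458). The Cre-positive and wild-type calls held with each library left out, and the Cre-negative one ended without any 1 of Cre-negative imiquimod libraries 1 and 2 and Cre-negative DMSO libraries 1 and 2 (adjusted p 0.0963 to 0.141). With DMSO 0 of the 18 rose and 8 fell against Cre-negative skin (median -1.40), or 2 without Cre-positive library 3 and 3 with a term for sex. In that comparison 14% of all genes rose and 15.7% fell.

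Antigen presentation genes, which interferon gamma also induces, had calls in the other direction under imiquimod. Of 16 tested class I genes 0 rose and 3 fell in Cre-positive against Cre-negative imiquimod skin, and of 8 tested class II genes 0 rose and 4 fell, or 2 to 4 of each with 1 library left out, the fewest without Cre-positive library 1 for class I and without Cre-negative library 2 for class II. With DMSO 0 rose and 6 fell of class I (4 without Cre-negative library 3) and 0 rose and 7 fell of class II (7 to 8 with 1 library left out). Of all genes 11.6% rose and 6.33% fell in the imiquimod comparison, and 14% rose and 15.7% fell in the DMSO one. Ciita, the master activator of class II genes, fell by 4.28 ± 0.38 against Cre-negative DMSO skin (adjusted p = 7.60e-06) and B2m, the invariant class I chain, by 2.01 ± 0.38 (adjusted p = 0.00162). Both calls held with each library left out.

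Cell markers moved with these groups. Summed macrophage and monocyte markers were at 1434 to 2748 CPM in Cre-positive imiquimod skin, against 343 to 861 in Cre-negative imiquimod skin, and 235 to 861 over all other libraries. Of 13 such genes 10 rose with imiquimod in Cre-positive skin and 6 rose against Cre-negative imiquimod skin, or 2 and 2 without Cre-positive imiquimod library 1, and 0 were at 0 in every library of a group. Of all genes 8.56% rose with imiquimod in Cre-positive skin and 11.6% rose against Cre-negative imiquimod skin. The same shares apply to the endothelial and neutrophil counts. Endothelial markers were at 146 to 323 CPM in Cre-positive imiquimod skin, against 32.1 to 39.3 in Cre-negative imiquimod skin, and 6 of 8 rose, or 1 to 3 with 1 library left out, the fewest without Cre-positive imiquimod library 1. Keratinocyte markers were at 7773 to 13179 CPM, against 20085 to 29182. Neutrophil markers summed to 54629.9 to 116148 CPM in Cre-positive imiquimod skin, against 85974 to 192759.8 in Cre-negative imiquimod skin, ranges that overlapped. Of 14 such genes 11 rose and 0 fell against Cre-negative imiquimod skin and 11 rose and 0 fell with imiquimod in Cre-positive skin, or 10 to 11 in each with 1 library left out and 11 and 4 with a term for sex. Against Cre-negative imiquimod skin the neutrophil sum therefore did not follow most of its genes. The part of these cell types in the interferon-stimulated genes was not tested. In bulk skin, fewer cells of a type and less RNA per cell cannot be told apart.

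With DMSO, dendritic and Langerhans cell markers were at 90.9 to 170.1 CPM in Cre-positive skin, against 337 to 417 in Cre-negative skin, and 8 of 10 tested fell while 1 rose, the 8 becoming 4 without Cre-negative DMSO library 3 and 5 with a term for sex. Cd207, the Langerhans cell lectin, was at 0, 0 and 0 CPM in Cre-positive DMSO skin, against 6.03, 4.92 and 14.2 in Cre-negative DMSO skin. T and NK cell markers summed to 34.3 to 46.7 CPM, against 38.6 to 50.9, ranges that overlapped, yet 8 of 13 tested fell. Of all genes 14% rose and 15.7% fell in Cre-positive against Cre-negative DMSO skin. Cd3e, of the T cell receptor complex, was at 0, 0.09697 and 0.0845 CPM, against 4.19, 2.35 and 2.33. Beside the low Cxcl9 of Cre-positive DMSO skin these values stand as measured, and their part in it was not tested. Neutrophil markers summed to 17202 to 63392 CPM in Cre-positive DMSO skin, against 135 to 773 in Cre-negative DMSO skin, and skeletal muscle markers to 1255 to 2198, against 6099 to 16320.3. The neutrophil list includes S100a8 and S100a9, and which genes carry its sum was not examined, so the sum is not read as a level of neutrophils. With any 1 library left out, 9 of its genes were called higher and 0 to 1 lower, or 7 and 0 with a term for sex. Siglech, the defining marker of plasmacytoid dendritic cells, was at 0.152 and 0.0884 CPM in Cre-positive imiquimod skin and 0.764, 0.485 and 0.6197 in Cre-positive DMSO skin, against 0.143 and 0.0672 in Cre-negative imiquimod, 0.838, 0.929 and 0.437 in Cre-negative DMSO, 0 and 0 in wild-type imiquimod and 1.704 and 0.7903 in wild-type DMSO skin. Over the 10 genes listed as markers of plasmacytoid dendritic cells the summed level was 1156 to 1921 CPM in Cre-positive imiquimod and 2471 to 3939 in Cre-positive DMSO skin, 2574 to 4434 in Cre-negative imiquimod and 1459 to 2053 in Cre-negative DMSO skin, and 2254 to 2545 in wild-type imiquimod and 926 to 1222 in wild-type DMSO skin. The sum lay far above Siglech in every library. In Cre-negative and wild-type skin it was higher with imiquimod, where Siglech was lower. The sum is therefore not read as a level of these cells. Of 9 tested, 1 rose and 0 fell with imiquimod in Cre-positive skin, 1 rose and 1 fell in Cre-negative skin and 1 rose and 3 fell in wild-type skin. With 1 library left out, 0 to 2 rose and 0 to 1 fell in Cre-positive and in Cre-negative skin, and 0 rose and 1 to 3 fell in wild-type skin.

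**Figure D4:**
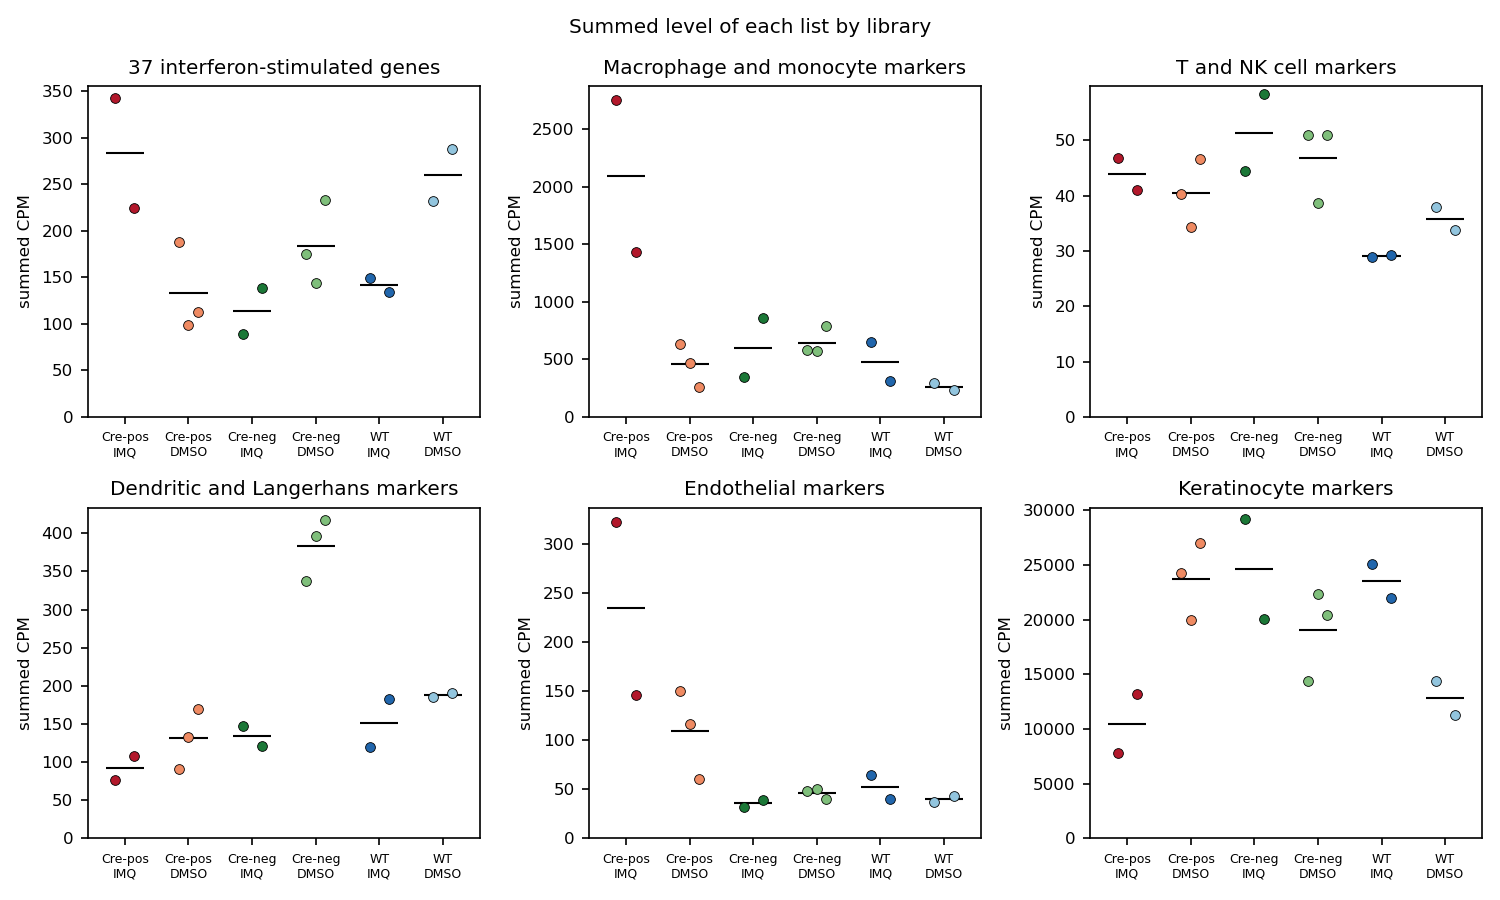
Summed level of the 37 interferon-stimulated genes and of 5 cell marker lists in each library, in CPM, with the 6 groups along the x axis, 1 point per library and a line at the group mean. The 37 genes reach 225 to 343 CPM in Cre-positive imiquimod skin, where the macrophage and monocyte markers reach 1434 to 2748. For the 37 genes this range overlaps that of wild-type DMSO skin.

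By their promoter letters, 5 of the 15 genes with an ISRE core rose between Cre-positive and Cre-negative imiquimod skin, as did 5 of the 13 genes with a window and no core. With imiquimod in Cre-positive skin 2 of the 15 and 5 of the 13 rose, and in the difference between responses 8 of the 15 and 5 of the 13 passed the threshold. The 2 genes of the identical Ifit3 and Ifit3b stretch both had positive differences between responses, 2.76 ± 0.89 and 4.96 ± 1.29.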

How the data were processed

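The 14 mouse skin libraries fall into 6 groups of genotype and treatment by their labels. The authors deposited 1 table of raw read counts per gene, all whole numbers. Gene length, a column the authors deposited in another unit (other: exon bases), was not used, and per the file headers gene positions are those of GRCm39. Per the submitters' processing notes STAR, featureCounts and DESeq2 were used with GRCm38 and GRCm39. How strand and multimapping reads were treated is not given in the sources used here. Of the 37 genes, 5 share exon bases with another gene on the same strand and 6 on the opposite strand, and those counts are less certain. The 5 are Irf9, Herc6, Rtp4, Parp14 and Ifi47.

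The members, the pathway lists and the marker lists were chosen with earlier results of these data known, so no pattern already shown by them is independent support. Genes were kept with filterByExpr (16027 of 56953), scaled by TMM, and fitted in edgeR 4.0.16 (R 4.3.3) as 1 quasi-likelihood model of 6 group means over all 14 libraries, from which 9 comparisons were drawn. Adjusted p-values are Benjamini-Hochberg values over all genes tested, with a threshold of 0.05. Fold changes are on the log2 scale, and ± gives a standard error, the fold change divided by the root of F. Intervals of read ratios are exact at 95%, and a group at 0 reads was given a floor of 3 reads over the group. Both cover counting error only, since these reads carry no molecular identifiers. Libraries of 5552954 to 34362477 reads limit precision for the many genes of the set with few reads.

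Alternatives were DESeq2 1.42.0, limma 3.58.1 voom with quality weights, RLE factors, unscaled library sizes, a stricter filter (1 CPM in at least 3 libraries) and none, fits of the compared groups only, a replicate block, a term for sex, no 18S ribosomal RNA row, no libraries high in it, and leaving out each library. Female libraries only was added after seeing the data. Where this leaves 1 library in a group, that library is assumed to vary like the other groups. In Cre-positive and Cre-negative DMSO skin, deviations of same-numbered libraries from their group means correlated in all 3 pairs (r = 0.352, 0.134 and 0.194). By a rule given below, the numbers were taken to pair these groups, on the data and not on any label, and in no other comparison. Wild-type imiquimod and Cre-positive DMSO libraries, which were not taken as paired, correlated more (r = 0.599 and 0.528). The pairing is therefore weakly based, and the main p-values do not use it. The procedure was tested on simulated counts. Named are all 37 genes, Nedd8 and the 18S row as checks, any gene of the lists of ligands, receptors and sensors, up to 4 genes with the smallest p of each other list and comparison, and defining cell markers. Promoter sequences are RefSeq's on GRCm38.p6, and shared 3′ sequence was sought in GENCODE transcripts as 50-base windows of the last 500 bases. One gene of the signalling list, although counted in it, is not reported here.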

Additional observations from a re-analysis of the deposited data

Results flagged for a closer look

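In 17 genes the response to imiquimod differed between Cre-positive and Cre-negative skin, and the difference itself was tested as an interaction in edgeR's model. All 17 differences were positive, that is, the fold change with imiquimod was higher in Cre-positive skin. On the log2 scale they were 8.75 for Oas3, 6.31 for Cxcl9, 5.37 for Mx2, 5.18 for Oas2, 4.96 for Ifit3b, 4.50 for Cxcl10, 3.94 for Irf7, 3.61 for Sp100 and 3.32 for Cmpk2. They were 3.12 for Gbp3, 3.09 for Gbp2, 2.97 for Trim30a, 2.97 for Oasl2, 2.76 for Ifit3, 2.57 for Irgm1, 2.53 for Parp14 and 2.42 for Usp18. The value of Oas3 depends on the prior count, because Cre-negative imiquimod skin had 0 reads of it. Oas2 and Oas3 passed the read filter only through the Cre-positive imiquimod libraries. Of all genes tested 23.6% had such a difference, which was positive in 14% of all genes and negative in 9.63%. Groups of 2 or 3 libraries are too small to look for single outlying samples.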

How the results depend on the processing

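Of the values of single genes under the alternatives run, 4478 kept their direction and their side of the threshold, 250 lost a call, 155 gained one, 195 values without a call changed sign, and 0 called values did. The counts of called genes moved more, and they are given without the shares of all genes under the same settings. Scaling by library size alone shifted the median log2 value of all genes, to -0.41 and -0.51 for Cre-positive over Cre-negative and over wild-type DMSO skin, to -0.63 and -0.76 for imiquimod in Cre-negative and wild-type skin, to 0.42 for Cre-positive over Cre-negative imiquimod skin, to 0.12 for imiquimod in Cre-positive skin and to 0.84 for the difference between responses. Tests in that run were against no change and not against the shifted median, so its counts of calls include the shift. They were 18, 19, 14, 18, 17, 10 and 26, against 10, 12, 5, 5, 13, 10 and 17 in the main run. In the same order, limma's voom gave 19, 19, 1, 2, 9, 13 and 17 calls. A term for sex gave 4 calls for Cre-positive over Cre-negative DMSO skin, 3 each for imiquimod in Cre-positive and Cre-negative skin and 9 for the difference between responses, and female libraries only gave 2 for the first of these. Without the 2 libraries high in 18S RNA, 8 remained between the genotypes under imiquimod and 0 for imiquimod in Cre-negative skin. A model of only the groups compared gave 6 calls for imiquimod in Cre-positive skin and 9 in Cre-negative skin. Between Cre-negative and wild-type skin voom gave 2 calls with DMSO, and no filter gave 1 with DMSO and 1 with imiquimod.

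With 1 library left out the calls ran from 4 to 13 for Cre-positive over Cre-negative imiquimod skin, 4 to 14 with DMSO, 5 to 12 against wild-type DMSO skin, 4 to 10, 0 to 3 and 1 to 4 for imiquimod in Cre-positive, Cre-negative and wild-type skin, and 8 to 19 for the difference between responses, and were 0 between Cre-negative and wild-type skin. Replicate numbers met the rule for pairing (at least 3 pairs, each correlated over 0.1) only between Cre-positive and Cre-negative DMSO skin, where the block changed the calls of Ifit2 and Cxcl10 and of no other gene of the set (over all groups 12 of 31 pairs correlated over 0.1, r from -0.44 to 0.60). A replicate block gave 13, 10, 9, 9, 3, 5 and 16 calls in the same order. The cause of these moves was not tested. DESeq2 gave no adjusted p in 9 cases. Depth limits most the 26 genes with fewer than 10 reads in a library.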
